A study of Mus musculus with 10 samples.

Results

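Chemokines are small secreted or membrane-anchored proteins that attract leukocytes, and their receptors are proteins of the cell surface that span the membrane and signal through G proteins. The 58 mouse genes of this system described here were taken by symbol from the 54446 gene identifiers of the count table. They are the protein-coding genes named Ccl, Cxcl, Cx3cl1 or Xcl1 (37 ligands) and Ccr, Cxcr, Xcr1 or Ackr (21 receptors, of which 4 are atypical). Counts came from sequencing of polyadenylated RNA of flash-frozen neuroblastomas of TH-MYCN mice. All animals carried a human MYCN transgene that a tyrosine hydroxylase promoter switches on in the sympathetic lineage, the untreated ones included. Libraries fell into 3 groups: untreated (libraries 1, 2 and 3), 24 h of the combination of MLN8237 with AZD6738 (libraries 2, 3 and 4) and 5 days of it (libraries 1, 2, 3 and 4). MLN8237 (alisertib) blocks Aurora-A, a kinase of mitosis, and AZD6738 (ceralasertib) inhibits ATR, a kinase that answers replication stress. Titles of the samples name a combination, whereas "or" stands between the drug names in the design text. No label ties a library to a mouse of its own, so p-values here cover the spread between libraries, which may be technical.

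A chemokine binds to sugars on vessel walls and matrix, and a cell that carries the matching receptor moves up the gradient. Inflammatory chemokines are switched on by cytokines and by sensors of stray DNA and of microbes, through factors of the NF-kB and IRF families. Homeostatic chemokines position cells in resting tissue. Atypical receptors bind chemokines without G protein signalling and remove or carry them. In tumours, the ligands of Ccr2 recruit monocytes and macrophages, those of Cxcr2 recruit neutrophils, and those of Cxcr3 recruit T cells and natural killer cells. In neuroblastoma the axis of Cxcl12 and Cxcr4 has been studied for homing to bone marrow.

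Libraries held 5576926 to 5696436 counts. A gene with no count was given a limit of 3 counts, or 0.516 to 0.654 CPM (the usual scaling of counts to the library total), which covers counting error only. One library stood apart, 5-day library 1. Its macrophage markers (12 of 12 detected) summed to 6380 CPM, against 273 to 704 CPM in the other 9 libraries. Fibroblast markers (8 of 8) summed to 17900 CPM there, against 229 to 2580 CPM, and adipocyte markers (6 of 6) to 4910 CPM, against 15.1 to 731 CPM. Adrenergic neuroblast markers (10 of 10) summed to 651 CPM there, against 1870 to 2960 CPM, so the tumour identity of the labels was measured in each library and was lowest in this one. Every comparison is therefore given with all 10 libraries and with the 9 others.

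Chemokine genes had few counts. At least 1 count was found for 46 of the 58 genes, and 20 genes reached the minimum for testing, 10 counts in 3 libraries. Without 5-day library 1 this fell to 16 genes, because Ackr1, Ccr1, Cxcl1 and Cxcl5 reached it only with that library. The 12 genes listed at 0 in all 10 libraries were Ccl2, Ccl6, Ccl19, Ccl20, Ccl21a, Cxcl10, Cxcl17, Xcl1, Ccr10, Cxcr1, Cxcr6 and Ackr4. That is 20.7% of the genes, and 20.8% of all 21918 protein-coding identifiers were listed at 0 as well. Among these are B2m, Rpl13 and Cox4i1, which nearly every cell uses, so a 0 cannot be read as absent RNA. All of the 12 chemokine and receptor genes at 0 except Ccl20 and Cxcr1 overlap a gene on the other strand. Among the detected ones, only Ackr1, Ccl25, Ccl27a, Ccr9, Cxcl15, Cxcl16 and Cxcr5 overlap another gene. The part of such overlaps in the zeros was not tested. Of the 46 detected genes, 34 had their highest CPM in 5-day library 1. The share of all genes highest in that library is not given here, so this count has no background. Part of it follows from what counts as detected, since Ccl21b had counts only there. In bulk tissue, more cells of a type and more RNA per cell cannot be told apart.

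**Figure D1:**
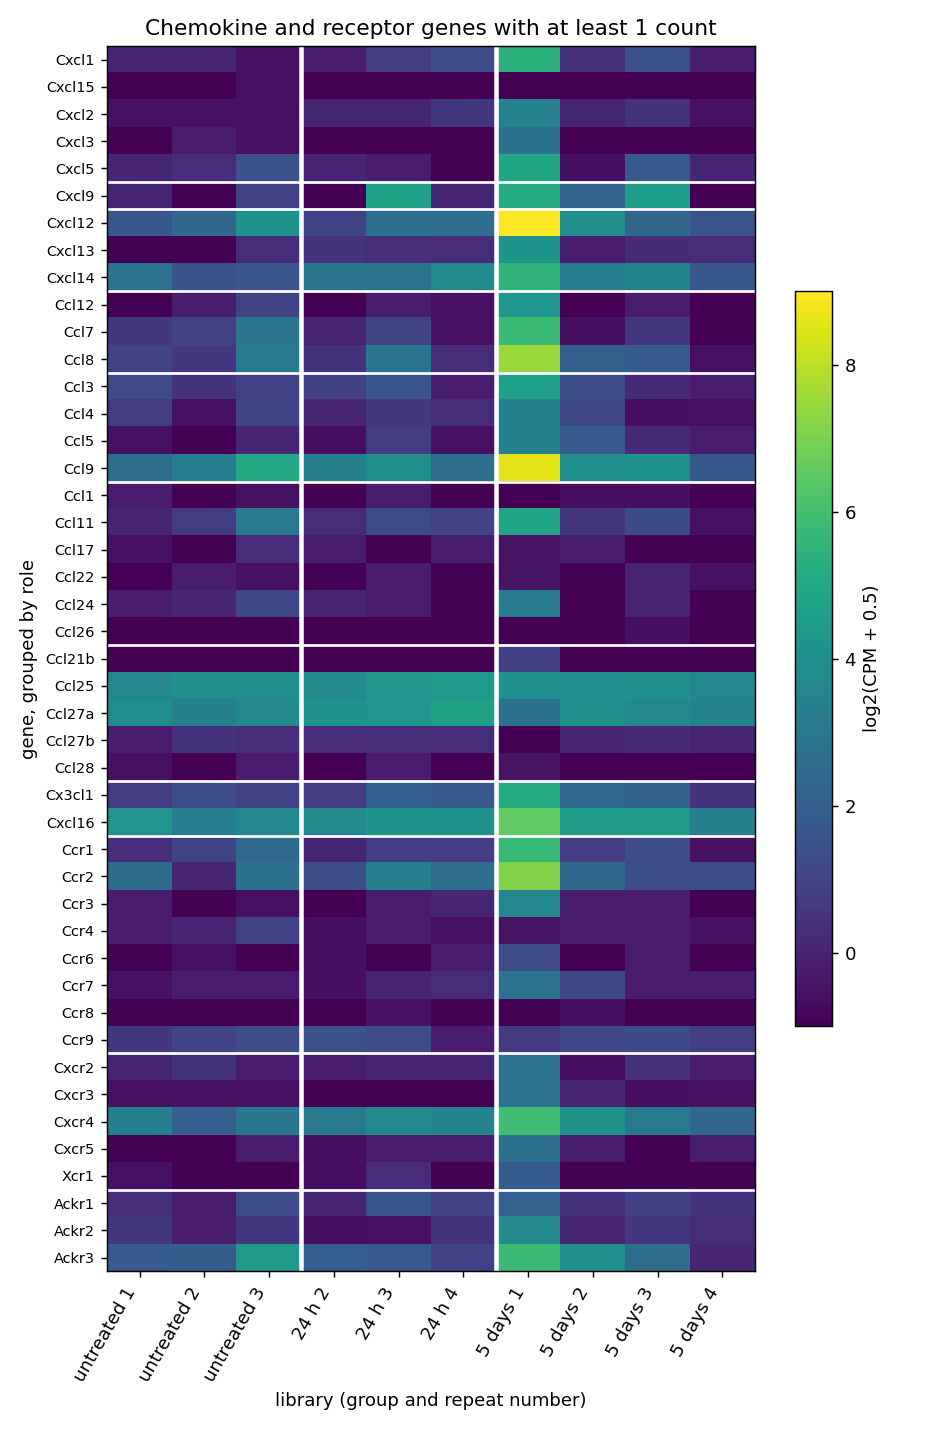
Level of 45 of the 46 chemokine and receptor genes with at least 1 count (rows, grouped by role) in the 10 libraries (columns, by group and library number), as log2 of CPM plus 0.5. The column of 5-day library 1 is the brightest for most genes, among them Cxcl12 and Ccl9, while Ccl25, Ccl27a, Cxcl16 and Cxcr4 show counts in every library.

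Ranked by level per exon length in the 9 libraries, Ccl27a came first with 6.39 CPM per kilobase. It was followed by Ccl8 (5.52), Cxcl16 (5.09), Cxcr4 (4.89), Ccl9 (4.08) and Cxcl14 (3.75), all in CPM per kilobase. With all 10 libraries the order was Ccl8 (40.6), Ccl9 (16.3), Ccl7 (8.60), Cxcr4 (7.73), Cxcl16 (7.68) and Cxcl12 (6.98). Neighbours in the order of the 9 libraries differed by less than the spread of their values between libraries.

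No chemokine or receptor gene was called in any comparison. With all 10 libraries, the quasi-likelihood test of edgeR called 0 of 20 genes at a Benjamini-Hochberg adjusted p under 0.05 at 24 h against untreated, at 5 days against untreated and at 5 days against 24 h. The background over all 15036 tested genes was 0.0% in each of the 3 comparisons. At an unadjusted p under 0.05 there were 0, 3 and 3 of the 20 genes in this order, against 1.76%, 8.41% and 6.32% of all tested genes. These include Cxcl1 (5 days against untreated) and Cxcl5 (5 days against 24 h), which were tested only because of 5-day library 1. In the 9 libraries the test called 0 of 16 genes in each comparison, with 0.0135% of all 14802 tested genes called at 24 h against untreated and 0.0% in the other comparisons. At an unadjusted p under 0.05 there were then 1, 0 and 1 of the 16 genes, against 8.22%, 8.6% and 7.86% of all tested genes. DESeq2 and limma voom also called 0 of these genes in all 6 fits. A p-value over the threshold does not show that levels were alike.

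Median log2 fold changes moved with single libraries. Over the 20 tested genes the median was 0.16 at 24 h against untreated, 2.29 at 5 days against untreated and 2.27 at 5 days against 24 h. All tested genes had a positive fold change in 48.5%, 50.6% and 52.8% of cases in these comparisons, and the chemokine genes in 11, 18 and 17 of 20. Ackr1, Ccr1, Cxcl1 and Cxcl5 were among the 20 only through 5-day library 1 and were positive in both comparisons of the 5-day group. Part of these counts and medians thus follows from how genes entered the test. With all 10 libraries the median at 24 h against untreated was -0.34 without 24-h library 3 and 0.60 without untreated library 3. In the 9 libraries the medians of the 16 genes were 0.17, -0.03 and -0.11, with 9, 8 and 7 positive, while 50.2%, 50.1% and 49.9% of all tested genes were positive. The comparisons share groups and are not independent of each other.

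**Figure D2:**
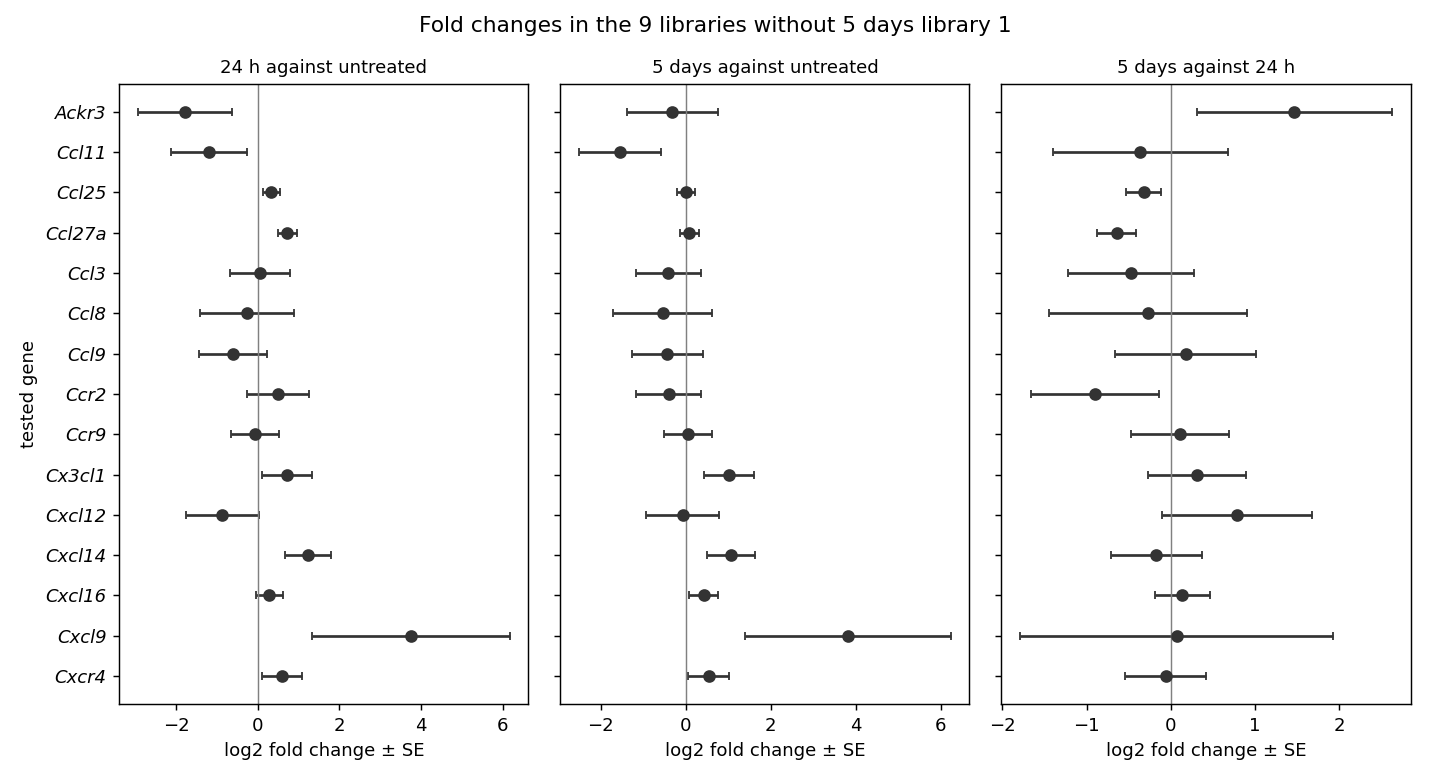
Log2 fold change with its standard error (edgeR, horizontal axis) for 15 of the 16 chemokine and receptor genes tested in the 9 libraries without 5-day library 1, in the 3 comparisons. Ccl27a has the smallest p at 24 h against untreated and at 5 days against 24 h, and Cxcl9 has the widest errors.

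Among the homeostatic CXC ligands, Cxcl12, the ligand that holds blood stem cells and leukocytes in bone marrow, was low in 9 libraries and high in 1. It had 2.80, 4.37 and 16.4 CPM in the untreated libraries, 1.55, 5.76 and 5.57 CPM at 24 h and 512, 15.3, 4.47 and 2.49 CPM at 5 days. The value of 5-day library 1 was 78.5 times the mean of the other 9, the highest such ratio among the tested genes. The remaining 5-day libraries lay within the range of the untreated ones apart from the lowest, and the groups overlapped. At 5 days the mean was 134 ± 252 CPM, against 7.85 ± 7.43 CPM in untreated tumours (SD, n = 4 and 3), a log2 fold change of 4.08 ± 1.86 (SE, adjusted p = 0.538, edgeR). Without 5-day library 1 it was 7.43 ± 6.91 CPM at 5 days (SD, n = 3), a log2 fold change of -0.07 ± 0.86 (adjusted p = 0.989).

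Cxcr4, the signalling receptor of Cxcl12, had 9.46, 3.49 and 7.14 CPM in the untreated libraries, 7.77, 11.9 and 10.8 CPM at 24 h and 60.1, 16.9, 7.74 and 4.44 CPM at 5 days. Its range at 24 h lay in the upper part of the untreated range and above it, and all groups overlapped. Ackr3, the atypical receptor that takes Cxcl12 up, had 3.15, 3.32 and 20.6 CPM in the untreated libraries, 3.45, 2.97 and 1.39 CPM at 24 h and 56.4, 15.5, 5.51 and 0.533 CPM at 5 days. Untreated library 3 held the highest Ackr3 and the highest Cxcl12 of the 9 libraries, and 5-day library 2 came next for both genes. Those are also the libraries with the highest adipocyte marker sums of the 9, at 433 and 731 CPM. The part of these cells in the levels was not tested. The log2 fold change at 24 h against untreated was 0.60 ± 0.49 for Cxcr4 in the 9 libraries (adjusted p = 0.78) and -1.78 ± 1.15 for Ackr3 (adjusted p = 0.727). At 5 days against untreated the values were 0.54 ± 0.49 (adjusted p = 0.792) for Cxcr4 and -0.31 ± 1.07 (adjusted p = 0.96) for Ackr3.

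Cxcl14, a homeostatic ligand of skin and other epithelia, was one of 2 tested genes whose 24-h libraries all lay above the untreated ones. It had 6.48, 2.27 and 2.61 CPM in the untreated libraries, 6.73, 6.99 and 12.9 CPM at 24 h and 45.1, 9.30, 11.5 and 2.84 CPM at 5 days. The gap between the groups was narrow, since untreated library 1 lay just under the lowest 24-h library. Mean levels were 8.87 ± 3.49 CPM at 24 h and 3.79 ± 2.34 CPM in untreated tumours (SD, n = 3 each), a log2 fold change of 1.23 ± 0.56 in the 9 libraries (unadjusted p = 0.0542, adjusted p = 0.611). At 5 days against untreated it was 1.07 ± 0.56 without 5-day library 1 (adjusted p = 0.644) and 2.17 ± 0.86 with it (adjusted p = 0.538), and the groups overlapped. Cxcl13, which draws B cells into follicles through Cxcr5, was under the minimum for testing, with 80 counts in 5-day library 1 and at most 5 counts in any other.

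Without overlap, 2 of the 20 genes were higher at 24 h than in untreated tumours, against a background of 7.1% of all tested genes, and 1 (Cxcl5) was lower, against 6.68%. Cxcl5 had 3, 4 and 13 counts in the untreated libraries and 3, 2 and 0 counts at 24 h. Its groups thus tied at 3 counts and were parted only by the scaling of the libraries. It reached the minimum for testing only with 5-day library 1. In the 9 libraries 2 of 16 were higher, against 7.14%, and 0 lower, against 6.74%. The second of the higher genes was Ccl27a, known for drawing T cells to skin through Ccr10. It had 14.5, 9.78 and 12.5 CPM in the untreated libraries, 17.1, 18.7 and 25.1 CPM at 24 h and 6.32, 15.8, 12.6 and 10.7 CPM at 5 days. All 24-h libraries lay above all others of both groups. The mean was 20.3 ± 4.23 CPM at 24 h, against 12.3 ± 2.39 CPM in untreated tumours (SD, n = 3 each). This gave a log2 fold change of 0.73 ± 0.23 in the 9 libraries, with the smallest unadjusted p of the system (0.00859, adjusted p = 0.449).

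At 5 days Ccl27a averaged 13.0 ± 2.62 CPM without 5-day library 1 (SD, n = 3), a log2 fold change of -0.64 ± 0.23 against 24 h (unadjusted p = 0.017, adjusted p = 0.579). It was the only tested chemokine or receptor gene without overlap in that comparison, where 4.36% of all tested genes were lower and 3.29% higher in 10 libraries and 6.7% and 5.25% in 9. At 5 days against untreated, 0 of 20 and 0 of 16 genes were without overlap, where 3.98% of all tested genes were higher and 4.89% lower in 10 libraries and 6.6% and 7.6% in 9. Ccl27a was also 1 of 2 tested genes lower in 5-day library 1 than in the mean of the others, at 0.416 times it. The exons of Ccl27a overlap those of Il11ra1 on the other strand and no source used here gives the strand setting of the counting, so reads of both genes cannot be told apart. Il11ra1 had 13.1, 9.61 and 17.4 CPM in the untreated libraries and 9.15, 15.2 and 10.5 CPM at 24 h, so its groups overlapped. At 5 days Il11ra1 had 74.9, 13.6, 11.7 and 10.7 CPM. In 5-day library 1 it was at 6.08 times the mean of the others, where Ccl27a was at 0.416 times. A near-identical copy, Ccl27b, had at most 5 counts. Macrophage markers summed to 503 to 704 CPM at 24 h and 273 to 457 CPM in untreated tumours, and Schwann cell and glial markers (6 of 6 detected) to 30.0 to 62.7 CPM and 13.5 to 22.2 CPM. Their part in the levels of Cxcl14 and Ccl27a was not tested.

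**Figure D3:**
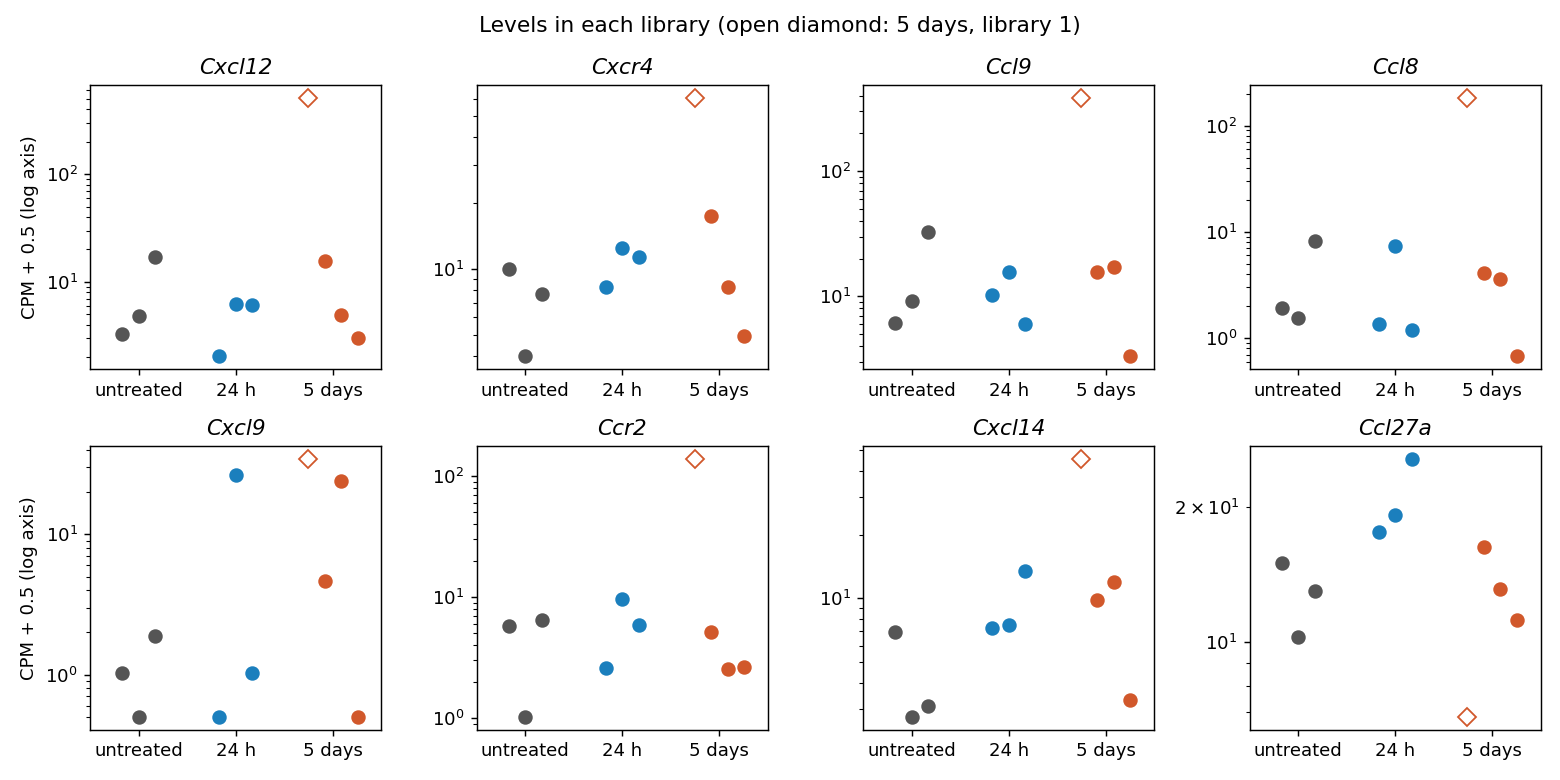
CPM plus 0.5 on a log axis for 8 chemokine and receptor genes in each library of untreated tumours and tumours after 24 h and 5 days of the combination (points, in order of library number; the open diamond is 5-day library 1). The diamond is highest for Cxcl12, Cxcr4, Ccl9, Ccl8, Cxcl9, Ccr2 and Cxcl14 and lowest for Ccl27a, whose 24-h points lie above all others.

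Ccl25, the thymic and intestinal ligand of Ccr9, had the most even levels of the tested genes. It had 11.9, 15.2 and 15.3 CPM in the untreated libraries, 13.1, 19.2 and 20.6 CPM at 24 h and 16.3, 14.6, 15.7 and 12.3 CPM at 5 days. Groups overlapped throughout, and 5-day library 1 lay at 1.07 times the mean of the others. Its log2 fold change in the 9 libraries was 0.33 ± 0.21 at 24 h against untreated (adjusted p = 0.719) and -0.32 ± 0.21 at 5 days against 24 h (adjusted p = 0.709). Its exons overlap those of Elavl1 on the other strand, an RNA-binding protein gene that averaged 144 CPM in the 9 libraries, so the counts of Ccl25 are uncertain. Ccr9 itself had 0.348 to 2.24 CPM over all 10 libraries, and its exons overlap those of Slc6a20a on the other strand.

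The other homeostatic and mucosal ligands were near or at 0. Ccl19, Ccl20 and Ccl21a, which guide cells into lymph nodes and to epithelia, were listed at 0. Ccl21b, whose sequence is nearly that of Ccl21a, had 6 counts in 5-day library 1 and 0 in the others, and Ccl28 had at most 2 counts. Ccr7, the receptor for Ccl19 and Ccl21, had 30 counts in 5-day library 1 and at most 10 in any other.

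The interferon-inducible ligand Cxcl9, which draws activated T cells and natural killer cells through Cxcr3, differed widely between libraries of the same group, also without 5-day library 1. It had 3, 0 and 8 counts in the untreated libraries, 0, 148 and 3 counts at 24 h and 157, 24, 137 and 0 counts at 5 days. In CPM these were 0.525, 0 and 1.39 in the untreated libraries, 0, 25.8 and 0.523 at 24 h and 34.2, 4.13, 23.6 and 0 at 5 days. A high value was thus found in 1 of 3 libraries at 24 h and in 2 of 4 at 5 days, and a value of 0 in 1 library of each group. Taking 3 counts as the limit for library 2, 24-h library 3 was at least 49.9-fold higher than 24-h library 2. Macrophage markers summed to 704 CPM in 24-h library 3 and 694 CPM in 24-h library 4, whose Cxcl9 was 0.523 CPM. How far these cells account for the level of Cxcl9 was not tested.

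The log2 fold change of Cxcl9 in the 9 libraries was 3.75 ± 2.42 at 24 h against untreated (adjusted p = 0.73), 3.82 ± 2.42 at 5 days against untreated (adjusted p = 0.712) and 0.07 ± 1.86 at 5 days against 24 h (adjusted p = 0.995). With all 10 libraries it was 3.73 ± 2.21 at 24 h against untreated (adjusted p = 1.0). Without 24-h library 3 this value was -1.22, so its direction rests on that library. Irf1 and Irf7, transcription factors of the interferon response, were also highest of the 24-h libraries in library 3, at 23.4 and 16.8 CPM, against 11.5 and 3.83 CPM in library 4. At 5 days Irf1 had 96.3, 15.3, 16.3 and 6.22 CPM in libraries 1, 2, 3 and 4. Irf7 had 493, 10.9, 5.16 and 1.24 CPM in the same order. How far these factors account for the level of Cxcl9 was not tested. The second interferon-inducible gene of the system, Cxcl10, was listed at 0. The gene of interferon gamma, Ifng, was listed at 0 in the 9 libraries and had 0.871 CPM in 5-day library 1. Cxcr3, the shared receptor, had 0.175, 0.175 and 0.174 CPM in the untreated libraries, 0 CPM in each 24-h library and 6.54, 0.517, 0.172 and 0.178 CPM at 5 days. Outside 5-day library 1 these are at most 3 counts, and the gene was not tested. T cell markers (8 of the 8 in the table) summed to 89.1 CPM in 5-day library 1 and 4.54 to 16.0 CPM in the others, with an average of 76.3% of a library's sum from Cd4, which dendritic cells and some macrophages of the mouse can also carry.

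Neutrophil-attracting ligands had few counts outside 5-day library 1. Cxcl1, Cxcl2, Cxcl3 and Cxcl5 act on Cxcr2 and lie in a cluster on chromosome 5 with Cxcl15 (90759360 to 90905938, GRCm38). Summed over the cluster they had 88.9 CPM in 5-day library 1, against 1.07 to 6.02 CPM in the other 9. Cxcl1 had 0.525, 0.524 and 0.174 CPM in the untreated libraries, 0.345, 1.22 and 1.92 CPM at 24 h and 42.5, 0.861, 2.24 and 0.356 CPM at 5 days. The log2 fold change of Cxcl1 at 5 days against untreated was 4.73 ± 1.75 (unadjusted p = 0.0237, adjusted p = 0.538) with all 10 libraries, and without 5-day library 1 the gene had too few counts to be tested. Cxcl5 had 30.1 CPM in 5-day library 1 and at most 2.92 CPM in the others. Cxcl2 and Cxcl3 had 47 and 28 counts there and at most 6 and 2 elsewhere, and Cxcr2 had 30 counts there and at most 5 elsewhere. Neutrophil markers (8 in the table, Ly6g at 0) summed to 95.2 CPM in 5-day library 1 and 2.49 to 13.1 CPM in the others, with an average of 79.3% of a library's sum from Csf3r. The part of neutrophils in the ligand levels was not tested.

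The promoters of Cxcl1, Cxcl2 and Cxcl3 are shown because these genes of the cluster were highest together in 5-day library 1. That of Cxcl9 is shown because its level was also high in 24-h library 3 and 5-day library 3, though Cxcl9 too was highest in 5-day library 1. Cxcl5, of the cluster with Cxcl1, Cxcl2 and Cxcl3, was also highest in 5-day library 1, but its promoter is not shown. The promoters shown therefore do not stand for all high genes of the cluster. Each is the 150 bases before the gene start on the strand named, 5′ to 3′, from the RefSeq promoter table (GRCm38.p6). Capitals mark GGGNNNTTCC, an NF-kB-like motif, searched on both strands, where matches may overlap each other.
Cxcl1, chr5:90891095-90891244, plus strand: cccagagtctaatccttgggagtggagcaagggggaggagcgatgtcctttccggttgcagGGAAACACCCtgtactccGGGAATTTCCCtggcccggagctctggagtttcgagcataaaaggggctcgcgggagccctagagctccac
Cxcl2, chr5:90903749-90903898, plus strand: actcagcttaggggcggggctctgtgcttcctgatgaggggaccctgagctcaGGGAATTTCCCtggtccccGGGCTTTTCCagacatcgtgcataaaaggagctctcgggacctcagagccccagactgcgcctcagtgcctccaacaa
Cxcl3, chr5:90785951-90786100, plus strand: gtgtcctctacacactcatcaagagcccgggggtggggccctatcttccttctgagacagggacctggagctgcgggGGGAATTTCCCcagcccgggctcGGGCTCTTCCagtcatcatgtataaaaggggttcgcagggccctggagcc
Cxcl9, chr5:92328080-92328229, minus strand: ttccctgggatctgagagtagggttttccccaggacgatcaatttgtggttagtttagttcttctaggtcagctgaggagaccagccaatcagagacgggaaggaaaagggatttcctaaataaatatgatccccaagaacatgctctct

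The run GGGAATTTCCC is in all 3 neutrophil ligand promoters shown and matches the motif on both strands, 1 base apart. The table held promoters for 44 of the 58 genes, as 51 windows. Over 250 bases before the start, GGGNNNTTCC was in 9 of 51 windows (17.6%), against 4.65% of all 32851 windows of that length in the table. Those windows belong to Ccl1, Ccl9, Ccl20, Ccr3, Ccr6, Cxcl1, Cxcl2, Cxcl3 and Cxcl10, so they include genes listed at 0. Cxcl5, which was also highest in 5-day library 1, is not among them. The interferon-stimulated motif GAAANNGAAA was in 3 of 51 windows (5.88%), against 2.98% of all windows, and belonged to Ccl19, Cxcl10 and Cxcl14. TTCNNNGAA, the gamma-activated motif, which reads the same on both strands, was in 3 of 51 windows (5.88%), against 7.02%. The window of Cxcl9 matched none of these motifs, but other forms of them were not searched. A match is a run of letters and no measure of binding, and the motifs may overlap each other.

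The monocyte-attracting CC ligands with counts were highest in the same library. Most of them act on Ccr2, while mouse Ccl8 is known as a ligand of Ccr8. Ccl8 had 1.4, 1.05 and 7.67 CPM in the untreated libraries, 0.863, 6.81 and 0.697 CPM at 24 h and 182, 3.62, 3.10 and 0.178 CPM at 5 days. Apart from 5-day library 1, its highest values were in untreated library 3 and 24-h library 3. The log2 fold change of Ccl8 in the 9 libraries was -0.27 ± 1.15 at 24 h against untreated (adjusted p = 0.97) and -0.54 ± 1.16 at 5 days against untreated (adjusted p = 0.928). Ccl7 had 258 counts in 5-day library 1, and 39 counts in untreated library 3 were its highest elsewhere. Ccl12 had 86 counts in 5-day library 1 and at most 8 in any other. Ccl2, the ligand best known for recruiting monocytes into tumours, was listed at 0. Ccl2, Ccl7, Ccl11, Ccl12, Ccl8 and Ccl1 lie together on chromosome 11 (82035571 to 82305690), where they summed to 285 CPM in 5-day library 1 and 0.356 to 23.5 CPM in the others.

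Ccr2, the receptor for Ccl2, Ccl7 and Ccl12 on monocytes, had 5.25, 0.524 and 5.92 CPM in the untreated libraries, 2.07, 9.08 and 5.40 CPM at 24 h and 139, 4.65, 2.06 and 2.13 CPM at 5 days. Groups overlapped in each comparison. The mean was 5.52 ± 3.51 CPM at 24 h, against 3.90 ± 2.94 CPM in untreated tumours (SD, n = 3 each), a log2 fold change of 0.50 ± 0.75 in the 9 libraries (adjusted p = 0.892).

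Among the macrophage inflammatory ligands, Ccl9, a ligand of Ccr1 in the mouse, had the highest level per exon length. It had 5.6, 8.73 and 32.4 CPM in the untreated libraries, 9.84, 15.2 and 5.57 CPM at 24 h and 384, 15.2, 16.5 and 2.84 CPM at 5 days. Untreated library 3 was the highest of the 9 and 5-day library 4 the lowest. Means were 11.5 ± 7.53 CPM at 5 days without library 1 and 15.6 ± 14.7 CPM in untreated tumours (SD, n = 3 each), a log2 fold change of -0.43 ± 0.83 (adjusted p = 0.918). Ccl3, a ligand of Ccr1, had 1.93, 0.873 and 1.39 CPM in the untreated libraries, 1.38, 2.62 and 0.348 CPM at 24 h and 24.8, 2.07, 0.688 and 0.356 CPM at 5 days. Its 24-h and 5-day ranges both enclosed the untreated range. The log2 fold change of Ccl3 at 24 h against untreated was 0.06 ± 0.73 in the 9 libraries (adjusted p = 0.988).

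Ccl5, a ligand made by T cells and macrophages, was under the minimum for testing. It had 1, 0 and 3 counts in the untreated libraries, 1, 7 and 1 counts at 24 h and 46, 17, 4 and 2 counts at 5 days. Its 5-day values were highest in libraries 1 and 2, which also had the highest sums of natural killer and cytotoxic markers (8 of 8 detected) of all libraries, at 47.9 and 2.24 CPM. The part of these cells in the level of Ccl5 was not tested. Ccl4 had 46 counts in 5-day library 1 and at most 10 in any other, and Ccl6 was listed at 0. Ccl5, Ccl9, Ccl6, Ccl3 and Ccl4 form a second cluster on chromosome 11 (83525778 to 83664683), which summed to 429 CPM in 5-day library 1 and 3.73 to 35.9 CPM in the others.

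Ccr1, a receptor for Ccl3 and Ccl9, had 54.7 CPM in 5-day library 1 and 0.178 to 4.88 CPM in the others.

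Ccl11 (eotaxin), which attracts eosinophils through Ccr3, had 0.525, 1.22 and 7.49 CPM in the untreated libraries, 0.690, 1.92 and 1.39 CPM at 24 h and 27.9, 1.03, 1.89 and 0.178 CPM at 5 days. Untreated library 3 alone stood above the rest of the 9. Without 5-day library 1 its mean was 1.03 ± 0.857 CPM at 5 days, against 3.08 ± 3.84 CPM in untreated tumours (SD, n = 3 each), a log2 fold change of -1.54 ± 0.97 (adjusted p = 0.697). The log2 fold change was 1.31 ± 1.44 with all 10 libraries (adjusted p = 0.699). The type 2 ligands Ccl17 and Ccl22, which act on Ccr4, had at most 4 and 3 counts, and Ccl24 had 38 counts in 5-day library 1 and at most 10 elsewhere. Ccl1 and Ccl26 had at most 2 and 1 counts.

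Both membrane-anchored ligands were detected in every library. Cxcl16, which is also a scavenger receptor on macrophages, had 17.9, 9.08 and 12.2 CPM in the untreated libraries, 12.8, 17.8 and 16.7 CPM at 24 h and 93.7, 22.1, 20.1 and 9.78 CPM at 5 days. Its levels in the 9 libraries spanned a narrow range and overlapped in each comparison, with log2 fold changes of 0.28 ± 0.33 at 24 h (adjusted p = 0.862) and 0.42 ± 0.33 at 5 days (adjusted p = 0.756), each against untreated. The exons of Cxcl16 overlap those of Zmynd15 on the other strand, which averaged 2.09 CPM in the 9 libraries. Cxcr6, its receptor on T cells, was listed at 0.

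Cx3cl1 (fractalkine), which neurons and vessel walls display to cells with Cx3cr1, had 1.23, 2.1 and 1.39 CPM in the untreated libraries, 1.21, 3.49 and 2.96 CPM at 24 h and 33.8, 4.82, 3.79 and 0.889 CPM at 5 days. At 5 days 3 libraries were above all untreated ones and library 4 below them. Without 5-day library 1 the mean was 3.17 ± 2.04 CPM at 5 days, against 1.57 ± 0.461 CPM in untreated tumours (SD, n = 3 each), a log2 fold change of 1.02 ± 0.60 (adjusted p = 0.674). With that library it was 2.76 ± 1.10 (unadjusted p = 0.0334, adjusted p = 0.538). Xcl1, which dendritic cells sense through Xcr1, was listed at 0, and Xcr1 had 15 counts in 5-day library 1 and at most 4 in any other.

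The remaining receptors were close to the limit of detection. Ackr1, which carries chemokines across venules, had 0.349 to 3.92 CPM over all 10 libraries, and its exons overlap those of Cadm3 on the same strand. Ackr2, which clears inflammatory CC ligands, had 57 counts in 5-day library 1 and at most 6 in any other. Ccr3 had 56 counts in that library and at most 3 in any other, and Cxcr5 had 27 and at most 2. Ccr4, Ccr6 and Ccr8 had at most 8, 9 and 1 counts in any library, and the ligand Cxcl15 had at most 1.

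Within 5-day library 1 the ligands and receptors stood at very different heights above the other libraries. Over the 20 tested genes, the ratio of its CPM to the mean of the other 9 had a median of 14.7 and ran from 0.416 (Ccl27a) to 78.5 (Cxcl12), while the median over all tested genes was 0.952. The ratio was over 10 for 11 of the 20 genes, against a background of 5.97% of all tested genes. As some genes were tested only because of that library, the count among the 16 genes tested in the 9 others was also taken, and it was 8, against 5.36%. The same ratio was 11.9 for the sum of macrophage markers, 12.2 for fibroblast, 27.0 for adipocyte, 5.29 for endothelial and 0.272 for adrenergic neuroblast markers. Cxcr4, Cxcl14, Cxcl16 and Cxcl9 lay between 5.5 and 6.80. The part of each cell type in these values was not tested.

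**Figure D4:**
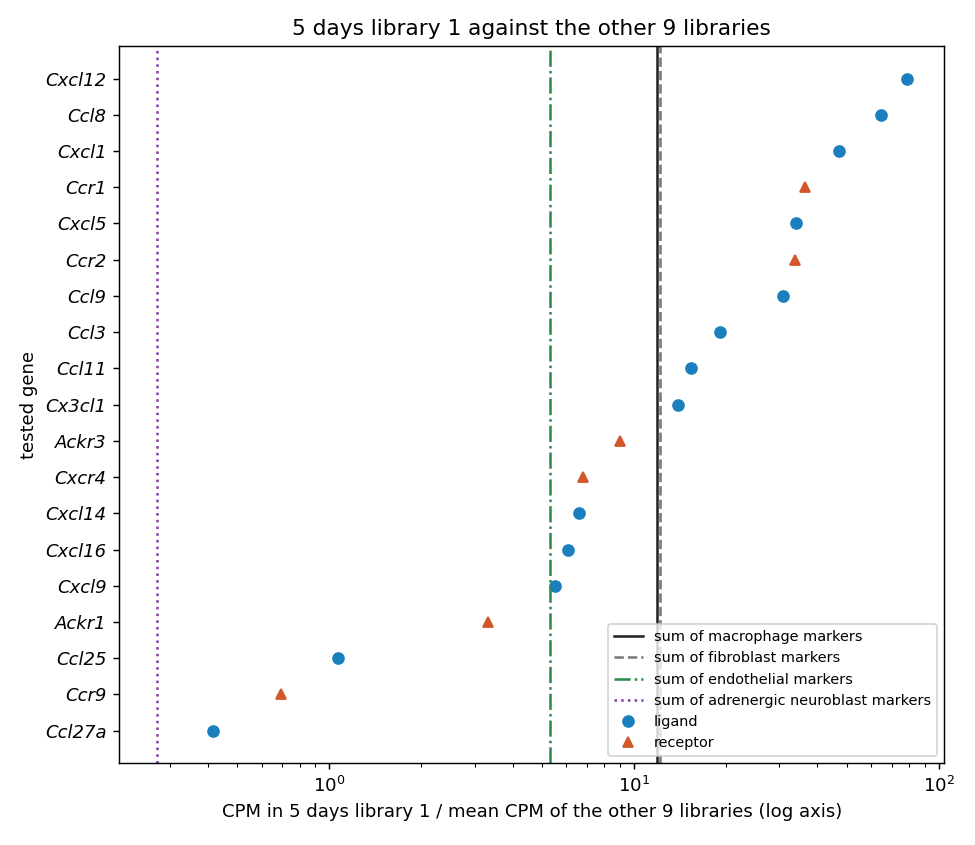
Ratio of the CPM in 5-day library 1 to the mean CPM of the other 9 libraries (log axis) for 19 of the 20 tested chemokine genes, ligands (circles) and receptors (triangles), with vertical lines at the ratios of 4 summed marker lists. Cxcl12, Ccl8 and Cxcl1 lie farthest to the right, and Ccl25, Ccr9 and Ccl27a lie near or below 1.

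Between the other 9 libraries, summed CPM of all 58 genes was 101, 78.4 and 184 in the untreated libraries, 93.5, 177 and 129 at 24 h and 169, 153 and 59.4 in 5-day libraries 2, 3 and 4. Untreated library 3 had the highest sum and 5-day library 4 the lowest, and the ranges of the groups overlapped. Of the 16 genes tested in the 9 libraries, untreated library 3 was highest for 5, 24-h library 3 for 4, 24-h library 4 and 5-day library 2 for 3 each and 24-h library 2 for 1. Untreated library 2 and 5-day library 4 were lowest for 6 each. Fibroblast marker sums were likewise highest in untreated library 3 (2580 CPM) and lowest in 5-day library 4 (229 CPM). Their part in the chemokine levels was not tested.

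Genes that work with chemokines were counted from 4 lists, and 0 were called in each list and comparison. Of 6 tested chemokine genes outside the name patterns, 3 had a positive log2 fold change at 5 days against untreated in the 9 libraries, with a median of 0.15. Ccrl2, a receptor that binds chemerin without signalling, had 1.79 ± 0.53 there (unadjusted p = 0.00624, adjusted p = 0.363) and Pf4, the platelet chemokine, had -1.39 ± 0.70 (adjusted p = 0.625). Ccrl2 had 0.700, 0.699 and 2.44 CPM in the untreated libraries, 4.32, 2.62 and 2.26 CPM at 24 h and 24.8, 3.45, 6.37 and 3.56 CPM at 5 days, so all 5-day libraries lay above the untreated ones, as did 3.98% of all genes tested in 10 libraries. At 5 days against 24 h, Cx3cr1, the receptor of Cx3cl1, had -1.27 ± 0.48 (adjusted p = 0.579).

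Of 11 tested genes of adhesion at vessels and shedding, 9 were positive at 5 days against untreated in the 9 libraries, with a median of 0.52. Vcam1, which holds leukocytes to the vessel wall, had 81.6, 50.3 and 47.4 CPM in the untreated libraries, 96.5, 95.4 and 58.2 CPM at 24 h and 510, 111, 116 and 96.9 CPM at 5 days. All 5-day libraries of Vcam1 lay above the untreated ones, as did 3.98% of all genes tested in 10 libraries and 6.6% in 9. The log2 fold change of Vcam1 was 0.86 ± 0.25 without library 1 (unadjusted p = 0.00667, adjusted p = 0.37). Itga4, a subunit of its ligand on leukocytes, had 0.87 ± 0.37 (adjusted p = 0.563).

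Of 21 tested genes of signalling below the receptors, 13 were positive at 5 days against untreated in the 9 libraries, with a median of 0.12. Dock2, which drives leukocyte migration, had 7.88, 4.54 and 5.75 CPM in the untreated libraries, 7.42, 9.61 and 9.41 CPM at 24 h and 163, 20, 11.7 and 9.60 CPM at 5 days. Its log2 fold change of 1.19 ± 0.32 at 5 days against untreated (unadjusted p = 0.00324, adjusted p = 0.331) had the smallest p of the 4 lists. Rgs1, a brake on G protein signalling, had 1.63 ± 0.51 (adjusted p = 0.418). Of 15 tested inducers of chemokine genes, 7 were positive, with a median of -0.01, and Irf3 and Tnfaip3 had the smallest p, at -0.47 ± 0.18 (adjusted p = 0.532) and 0.80 ± 0.33 (adjusted p = 0.554). At 24 h against untreated the medians of the 4 lists in the 9 libraries lay between 0.04 and 0.23. With macrophage marker sums of 425 to 704 CPM in 5-day libraries 2 to 4 and 273 to 457 CPM in untreated ones, the part of these cells in the leukocyte genes was not tested.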

How the data were processed

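Polyadenylated RNA of 10 tumour libraries was sequenced, per the labels' protocols. The deposited files hold raw counts per Ensembl gene from the authors, and each column was matched to its sample by name, with 0 unmatched. The submitters' processing notes name the build mm10 and TopHat2 2.1.1, HISAT2 and edgeR, with no role for any. How reads were counted (tool, annotation, strand, multiple alignments) was not given in the sources used here. Symbols, exon lengths and coordinates came from GENCODE M21 for 54409 of 54446 identifiers.

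Genes with at least 10 counts in 3 of the fitted libraries were tested in R 4.3.3 with edgeR 4.0.16: TMM scaling, 1 mean per group, robust quasi-likelihood F test, Benjamini-Hochberg adjustment over all tested genes and a threshold of 0.05. Standard errors came from the F statistic. The spread between libraries, as a biological coefficient of variation, came to 40.9% in 10 libraries and 19% in 9. The TMM factor of 5-day library 1 was 0.812, and those of the others were 1.001 to 1.039. CPM uses these scaled totals and was divided by exon length for levels between genes. The tests were tried on simulated data first.

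Alternatives were DESeq2 1.42.0, its size factors, limma 3.58.1 voom with quality weights, the compared groups fitted alone, a minimum mean of 5 CPM, no minimum at all, the replicate number as a block and leaving out each library. Full values are given for the 8 tested genes with the highest level per exon length over 10 libraries, the 3 with the smallest p in each comparison of 9 libraries and 4 sets of ligands with receptors. A gene that this rule names is not reported here. Other genes are given by counts or range, and genes of the lists by the smallest p. The members, lists, comparisons and naming rule were chosen with earlier results of these data known, and the motifs, the printed promoters and Ifng were chosen after the values were seen. Plots were drawn with matplotlib 3.10.9 in Python 3.11.15.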

Additional observations from a re-analysis of the deposited data

Results flagged for a closer look

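In the 5-day group, 1 library lay far from the other 3 for 15 of 23 chemokine and receptor genes examined (19 of the tested genes with Ccl5, Ccl7, Cxcl13 and Cxcr3), by Dixon's criterion of the gap to the nearest value over the whole range. The criterion is set to be met by chance in about 1 of 20 groups of normally distributed values, which CPM need not be. For these data the share of all genes, given below, is the background. It was library 1, as the highest value, for all 15. Its CPM was 512 for Cxcl12, 384 for Ccl9, 182 for Ccl8, 139 for Ccr2, 93.7 for Cxcl16, 56.2 for Ccl7 and 54.7 for Ccr1. The other values in library 1 were 42.5 CPM for Cxcl1, 33.8 CPM for Cx3cl1, 30.1 CPM for Cxcl5, 27.9 CPM for Ccl11, 24.8 CPM for Ccl3, 17.4 CPM for Cxcl13, 6.54 CPM for Cxcr3 and 3.92 CPM for Ackr1. Library 1 stood apart over all genes: by the same criterion it was far above the other 3 for 17.7% of all genes tested in 10 libraries and for 17.3% of those tested in 9, and for 12 of 19 and 8 of 15 chemokine and receptor genes tested there. Of the genes above, Ccl7, Cxcl13 and Cxcr3 were not tested, and Ackr1, Ccr1, Cxcl1 and Cxcl5 reached the minimum only with library 1. The genes share this library, so these are not 15 independent results. Macrophage, fibroblast and adipocyte marker sums were highest in it as well, and their part in these values was not tested.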

How the results depend on the processing

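The count of 0 called chemokine and receptor genes was unchanged in all 80 alternative fits. These fits are not all distinct, since leaving 5-day library 1 out of the 10 gives the main fit of the 9. Fold changes of the 3 genes with the smallest p in each fit kept their direction and their side of the threshold in 224 alternatives. Among these genes the 1 exception was Cxcl9 at 24 h against untreated with all 10 libraries (main value 3.73), which ran from -1.22 without 24-h library 3 to 4.95 when other single libraries were left out. The cause was not tested. Of all 16 genes tested in both sets, 10 had another sign at 5 days against untreated without 5-day library 1, Cxcl12, Ccl11 and Ackr3 among them, 8 at 5 days against 24 h and 0 at 24 h against untreated. Over all genes, DESeq2 called 22 at 5 days against untreated and 3 at 5 days against 24 h with all 10 libraries. It called 104 at 24 h against untreated, 82 at 5 days against untreated and 20 at 5 days against 24 h in the 9 libraries. There, edgeR called 2 genes at 24 h against untreated, 8 with no filter, and 7 with only the compared groups. That last fit is the same with all 10 libraries, since 5-day library 1 is in neither group. At 5 days against untreated, edgeR called 9 in the 9 libraries with no filter. Leaving out 1 of the 9 libraries gave 0 to 2 calls at 24 h against untreated, 0 to 9 at 5 days against untreated and 0 to 4 at 5 days against 24 h. The median of the tested chemokine genes at 5 days against untreated ran from -0.03 to 2.68 when 1 of the 10 libraries was left out, with -0.03 without 5-day library 1. In the 9 libraries that median ran from -0.41 to 0.59. At 24 h against untreated it ran from -0.34 to 0.60 with all 10 libraries and from -0.06 to 0.52 with 9, and at 5 days against 24 h from -0.11 to 2.99 and from -0.41 to 0.27. With limma voom's quality weights and all 10 libraries it was 0.02 at 5 days against untreated and 0.12 at 5 days against 24 h. Deviations from group means had r from -0.39 to 0.24 between same-numbered libraries with all 10. At 24 h against untreated the same-numbered pairs had 0.21 and 0.24, and other pairs at most 0.05. In the other comparisons same-numbered pairs had -0.39 to 0.03, and other pairs reached 0.49. These values cannot decide whether the numbers pair libraries, since the pairs are few and 5-day library 1 shifts its group mean. With the replicate number as a block, 0 chemokine genes and 0 of all genes were called in each comparison, and the median of the tested genes at 24 h against untreated was 0.95 with all 10 libraries and 0.56 with 9, and at 5 days against 24 h it was 0.28 with all 10. Of the detected genes, 26 were under the minimum and were not tested.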
